A study of Mus musculus with 12 samples.

Results

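The regions described here are the ATAC-seq peaks whose nearest gene, as the deposited tables name it, is an odorant receptor (symbols beginning with Olfr), a vomeronasal receptor (Vmn1r or Vmn2r) or a trace amine-associated receptor (Taar). The rule used the gene name only, so no measured value chose them, and the 3 tables were kept apart. It gave 145 of 91770 peaks in microglia, 147 of 107627 in NeuN+ nuclei and 58 of 82577 in Olig2+ nuclei, or 350 of 281974 in all. Olfr genes were nearest to 107, 128 and 52 of them, Vmn1r genes to 29, 10 and 2, Vmn2r genes to 6, 7 and 3, and Taar genes to 3, 2 and 1, in the same order of sorts. ATAC-seq inserts sequencing adapters into open DNA with the Tn5 transposase, and a peak is a place where insertions pile up. The libraries came from forebrains of C57BL/6 mice aged 4 months, which were wild-type (WT) or SgshKO, a knockout of the gene for the lysosomal enzyme sulfamidase, which takes part in breaking down heparan sulfate. Each sort has 2 WT and 2 SgshKO libraries, 12 in all. Microglia were sorted as unfixed CD11b+, CX3CR1+ cells with low CD45, whereas NeuN+ nuclei (neurons, negative for PU.1 and OLIG2) and Olig2+ nuclei (oligodendrocyte lineage, negative for PU.1 and NEUN) were sorted after light formaldehyde fixation, so sort and preparation cannot be told apart. The labels do not say whether the replicates are separate animals, and the p-values below measure the spread between these libraries only.

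Odorant, vomeronasal and trace amine receptors are G protein-coupled receptors of the nose. They lie in large tandem arrays, and a mature olfactory sensory neuron expresses a single odorant receptor gene from a single allele while the remaining copies are held in compact heterochromatin. In those neurons the transcription factors Lhx2 and Ebf, with the cofactor Ldb1, bind the enhancers of the arrays. Brain cells outside the olfactory system are known for keeping these genes silent, and the arrays are rich in interspersed repeats.

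Few promoter windows of these genes overlapped a peak. Of 1283 promoter windows of the receptor genes in the RefSeq table of assembly GRCm38.p6 (250 bases before to 50 after the start site), 3 overlapped a peak in any sort, or 0.234%, against 51.2% of the 31568 windows of other genes. These windows cover 1278 receptor genes. Olfr658 and Olfr1033, which have no window in that table, are not counted, although the deposited tables place microglia peaks at 29 and -37 bp from their start sites. The 5 sequences that follow are the 250 bases before the start site, 5′ to 3′ on the strand of the gene, from RefSeq. The first 3 are the promoters with a window that a peak reached, with the bases inside that peak in capitals: Vmn2r29 in Olig2+ nuclei (chr7:7278290-7278539, minus strand), Olfr110 in microglia (chr17:37492218-37492467, plus strand) and Olfr317 in NeuN+ nuclei (chr11:58733224-58733473, minus strand).
Vmn2r29: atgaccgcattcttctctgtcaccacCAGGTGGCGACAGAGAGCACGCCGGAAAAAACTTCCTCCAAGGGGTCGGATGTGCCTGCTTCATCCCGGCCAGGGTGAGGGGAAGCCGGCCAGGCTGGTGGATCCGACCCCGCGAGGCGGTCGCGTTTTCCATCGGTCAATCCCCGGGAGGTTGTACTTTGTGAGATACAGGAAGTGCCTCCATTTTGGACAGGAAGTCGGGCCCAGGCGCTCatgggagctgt
Olfr110: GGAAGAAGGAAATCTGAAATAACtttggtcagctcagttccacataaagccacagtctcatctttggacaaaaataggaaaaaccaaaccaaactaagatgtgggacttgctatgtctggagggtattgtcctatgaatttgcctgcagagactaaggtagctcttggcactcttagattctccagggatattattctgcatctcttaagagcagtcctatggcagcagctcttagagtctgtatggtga
Olfr317: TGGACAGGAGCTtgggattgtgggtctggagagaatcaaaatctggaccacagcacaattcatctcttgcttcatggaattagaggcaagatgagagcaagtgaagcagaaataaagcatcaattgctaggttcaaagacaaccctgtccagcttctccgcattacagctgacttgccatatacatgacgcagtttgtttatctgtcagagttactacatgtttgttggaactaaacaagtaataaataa
The other 2 stand for promoters with no peak in any sort. Olfr290 (chr7:84915531-84915780, plus strand, with TATAAA and TAATTA in capitals) is the nearest gene of a peak that rose in NeuN+ nuclei, 22423 bp from its start site. Olfr502 (chr7:108523949-108524198, minus strand, with TATAAA in capitals) is the nearest gene of a peak that fell in Olig2+ nuclei, 2801 bp from its start site.
Olfr290: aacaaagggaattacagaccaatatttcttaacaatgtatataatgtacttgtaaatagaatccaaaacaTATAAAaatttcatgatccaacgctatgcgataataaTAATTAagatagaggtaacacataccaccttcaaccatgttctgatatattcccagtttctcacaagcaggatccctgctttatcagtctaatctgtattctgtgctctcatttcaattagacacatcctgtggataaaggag
Olfr502: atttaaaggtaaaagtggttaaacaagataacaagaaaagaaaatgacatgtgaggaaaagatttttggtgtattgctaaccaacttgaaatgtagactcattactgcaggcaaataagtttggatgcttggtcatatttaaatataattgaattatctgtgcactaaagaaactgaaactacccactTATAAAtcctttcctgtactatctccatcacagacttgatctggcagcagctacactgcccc
The Vmn2r29 sequence differs from the other 4 in base composition. Its 250 bases are 60.8% G or C and hold 17 CpG dinucleotides, whereas Olfr110, Olfr317, Olfr290 and Olfr502 are 42.4%, 41.2%, 33.2% and 34.8% G or C with 0, 2, 2 and 0 CpG. Of its bases shown, 213 lie inside the Olig2+ peak, against 23 for Olfr110 and 12 for Olfr317, whose peaks touch only the far end of the window.

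The receptor promoters as a group are poor in CpG. Their windows had a median of 35.7% G or C and 1 CpG, against 53.3% and 8 CpG for the windows of other genes. Among windows with 0 or 1 CpG, 1 of 825 receptor promoters overlapped a peak, or 0.121%, against 282 of 3815 other promoters, or 7.39%. With 2 to 9 CpG the shares were 1 of 455 (0.22%) and 3315 of 13475 (24.6%). Only 3 receptor promoters held 10 CpG or more, and the open one among them was that of Vmn2r29. The receptor promoters were thus open less often in each of the lower CpG bins, and the shares are descriptions of these windows with no test.

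**Figure D1:**
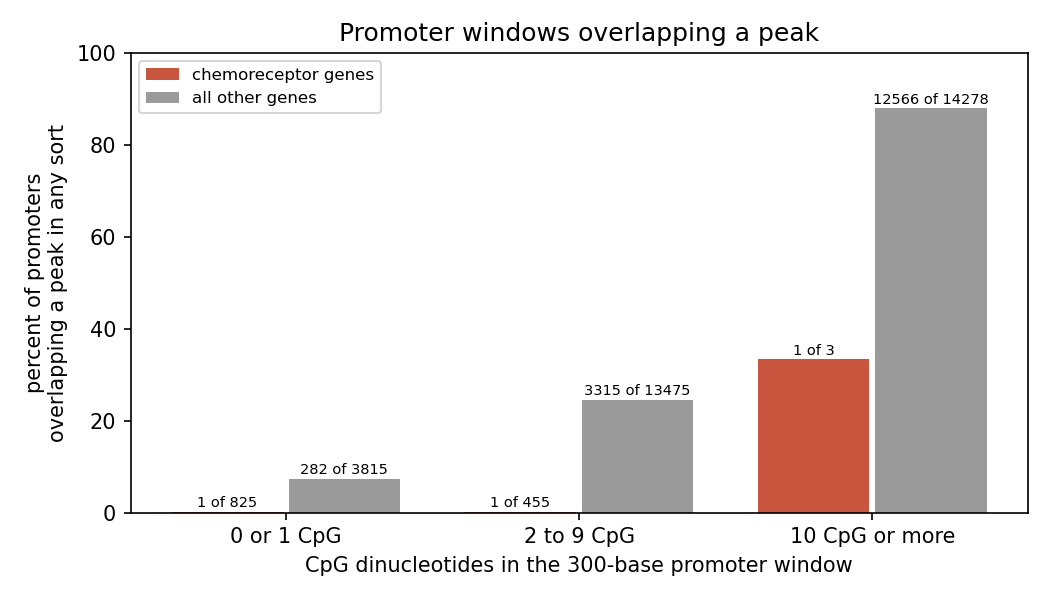
Percent of RefSeq promoter windows that overlap a peak in any sort (vertical axis, from 0) by the number of CpG dinucleotides in the window (horizontal axis), for chemoreceptor genes (red bars) and all other genes (grey bars), with counts above the bars. At 0 or 1 CpG the shares are 0.121% and 7.39%, and at 2 to 9 CpG 0.22% and 24.6%.

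Short sequence motifs were counted on both strands of these windows; a match is a description and not a binding site. TAATTA and CACGTG read the same on both strands, and the ends of TATAAA and TAATTA can share bases. TATAAA, the core of the TATA box, was in 39.7% of receptor promoters and in 13.6% of all 32851 windows. TAATTA, the core recognised by LIM homeodomain factors such as Lhx2, was in 16.5% and 5.29%. CACGTG, the E-box of MITF, TFEB and TFE3, was in 2.42% and 7.15%, and the palindromic Ebf motif in 0.390% and 0.904%. The receptor windows hold less G and C, as given above, and the shares that base composition alone would give were not computed. The full palindromic NFI motif was in no receptor promoter and in 12 windows in all. GAGGAAGT, a PU.1 motif, was in 6.63% and 3.20%, and 74 of its 85 receptor promoters were of Vmn1r genes. In 72 of those 74 the match began 33 bases after the start site, at the same place in each. None of the 85 receptor promoters with GAGGAAGT overlapped a microglia peak, against 471 of 967 promoters of other genes with these letters (48.7%). With or without the motif, 1 of 1283 receptor windows and 12847 of 31568 other windows overlapped one, so the 0 is no result about this motif.

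The peaks were few for the number of genes. Of 1480 protein-coding receptor genes in the RefSeq table, 62 (4.19%) were the nearest gene of a microglia peak, 90 (6.08%) of a NeuN+ peak and 38 (2.57%) of an Olig2+ peak, against 72.3%, 76.6% and 68.0% of 20420 other protein-coding genes. In any sort the count was 144 receptor genes, and in all 3 sorts 15. Taar genes had the highest share, 4 of 15 with a peak in any sort, followed by 122 of 1110 Olfr genes, 7 of 124 Vmn2r genes and 11 of 231 Vmn1r genes. A peak within 1000 bp of the start site was found for 6, 7 and 5 receptor genes.

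Most of the peaks lay between genes. The tables place 121 of the 145 microglia members (83.4%), 112 of 147 NeuN+ members (76.2%) and 49 of 58 Olig2+ members (84.5%) in intergenic sequence, against 28.7%, 27.4% and 24.7% of all peaks. The nearest to a start site was the microglia peak 29 bp from that of Olfr658 (chr7:104647169-104647383), and the farthest was a microglia peak 359831 bp from that of Olfr161. The gene name is a label of nearness and not of function: 13, 20 and 3 members lie inside a gene of another kind, and 32, 49 and 12 are nearer to the body of such a gene than to the start of the receptor gene. Annotated repeats held 22 microglia members (15.2%), 35 NeuN+ members (23.8%) and 5 Olig2+ members (8.62%), against 12.3%, 9.65% and 11.3% of all peaks. Compared with intergenic peaks only, the shares were 17.4% against 20.4%, 30.4% against 15.4%, and 10.2% against 18.1%. Only in the NeuN+ table was the share of repeats above that of the intergenic peaks, a difference between tables that was not tested.

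The libraries held between 10771659 and 19555924 tags in all. The share in peaks was 55.8% and 48.7% in WT and 67.4% and 53.7% in SgshKO microglia, 26.7% and 25.9% against 21.5% and 21.2% in NeuN+ nuclei, and between 30.9% and 31.8% in the Olig2+ libraries. The 2 SgshKO microglia libraries stand apart from each other, with a chi-square of 9.84 per peak and degree of freedom against 3.06 for the WT microglia pair and 1.18 to 1.41 for the other pairs. All 6 fixed markers of the sorted type had a start-site peak in each sort, and the 4 blood myeloid markers had none. Of the other lists, start-site peaks were found for 2 of 6 neuron, 3 of 6 oligodendrocyte lineage, 3 of 5 astrocyte and 2 of 4 endothelial markers in microglia, for 1 of 6 microglia, 2 of 6 oligodendrocyte lineage, 1 of 5 astrocyte and 0 of 4 endothelial markers in NeuN+, and for 1 of 6 microglia, 4 of 6 neuron, 2 of 5 astrocyte and 0 of 4 endothelial markers in Olig2+ nuclei. Summed over the start-site peaks of a list, the tags did not overlap between genotypes for the oligodendrocyte lineage list in microglia (175 and 169 in WT, 231 and 211 in SgshKO). In NeuN+ nuclei they did not overlap for the neuron (854 and 779 against 449 and 453), oligodendrocyte lineage (84.4 and 72.3 against 38.4 and 36.2) and microglia lists (54.4 and 48 against 34.2 and 32.4). In Olig2+ nuclei the oligodendrocyte lineage list had 2005 and 1985 against 1575 and 1506, the microglia list 94.9 and 88.0 against 116 and 134, and the neuron list 42.5 and 51.6 against 60.3 and 59.2. The other lists overlapped or were at 0, and the part of these shifts in the members' changes was not tested. At the start site of Sgsh itself the normalized tags were 184, 162, 257 and 259.9 in microglia, 34.6, 22.6, 9.07 and 13.3 in NeuN+ and 65.9, 74.2, 60.9 and 69.1 in Olig2+ libraries (WT 1 and 2, then SgshKO 1 and 2), which does not check the knockout, since the altered part of the gene is not given in the sources used here. Values below are normalized tags, scaled by the authors to 10000000 tags a library; changes are SgshKO minus WT on the log2(tags + 1) scale, which understates low peaks, with the standard error. The members are weak peaks, with a median of 20.3, 10.9 and 12.8 tags against 30.3, 12.1 and 15.0 for all peaks. Among intergenic peaks only, the medians were 20.6, 10.9 and 12.7 for members against 26.7, 11.5 and 13.8. In sorted pools, fewer open nuclei and less insertion per nucleus cannot be told apart.

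In microglia, most members that passed the test were in a block of peaks nearest Vmn1r2 with lower signal in SgshKO libraries. With limma, 31 of 145 members were called at an adjusted p under 0.05, against 7.37% of all microglia peaks. Of these, 2 rose and 29 fell, where 5.05% of all peaks rose and 2.33% fell. The median change was -0.65 over the members and -0.08 over all peaks. Both SgshKO libraries lay on 1 side of both WT libraries at 91 of 145 members, against 51.1% of all peaks. Without the 29 peaks nearest Vmn1r2, 6 of 116 members were called (5.17%), 2 higher and 4 lower, with a median change of -0.36. The genotypes were separated at 62 of these 116, close to the share of all peaks. The change was below 0 at 83 of the 116, and at 50767 of 91770 peaks of the whole table. The count of 31 rests on single libraries, as does the count over all peaks. Both were lower without either WT replicate and higher without either SgshKO replicate. The members' median change was -0.55 and -0.72 without WT replicate 1 or 2, and -0.70 and -0.45 without SgshKO replicate 1 or 2. Over all peaks the medians were 0.02, -0.18, -0.27 and 0.15, in the same order.

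**Figure D2:**
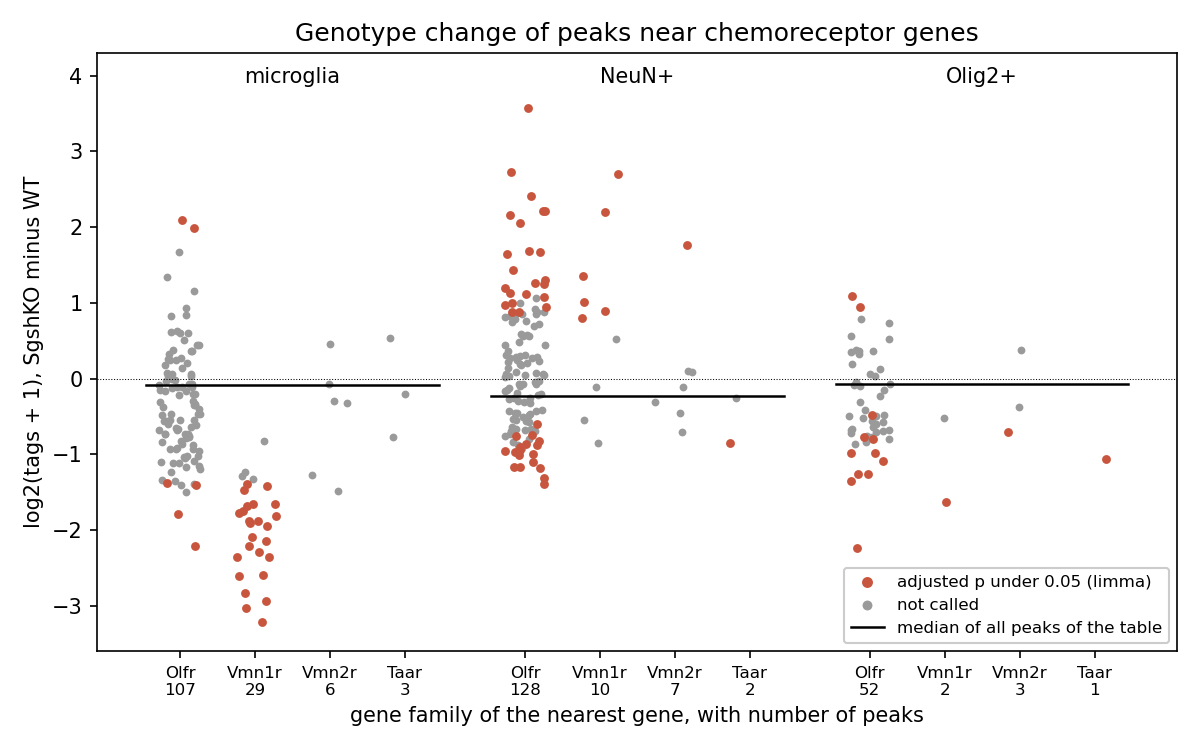
Change of each member on the log2(tags + 1) scale (vertical axis, SgshKO minus WT) by gene family and sort (horizontal axis, with the number of peaks), in red where limma's adjusted p is under 0.05 and grey otherwise; black lines are medians over all peaks of the table. The microglia Vmn1r points, all nearest Vmn1r2, lie between -3.22 and -0.82, and the NeuN+ called members split into 30 above and 19 below 0.

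Vmn1r2, a type 1 vomeronasal receptor gene, was the nearest gene of 29 microglia peaks on chromosome 4, between positions 3050124 and 3085892, which is 86360 to 121731 bp from its start site. They make up 20% of the microglia members and are the first peaks of the table on that chromosome. Summed over the block, the WT libraries held 1100 and 852 tags and the SgshKO libraries 185 and 333. The groups did not overlap at any of the 29 peaks, 25 were called and all of those fell, with changes over the block from -3.22 to -0.82 and a median of -1.89. At the peak at chr4:3063746-3063974 WT had 17.3 and 16.9 tags and SgshKO 0 and 2.79. That is a change of -3.22 ± 0.58 (adjusted p = 0.000362), the largest decrease of the members; it was not called without WT replicate 1 or WT replicate 2. At another peak of the block, picked because earlier results of these data had named it, the values were 69.1 and 38.1 against 9.52 and 11.1. The change there was -2.21 ± 0.43 (adjusted p = 0.000808), and the call was lost without WT replicate 1. None of the 29 lies in an annotated repeat, and none has a partner in the NeuN+ or Olig2+ tables at a reciprocal overlap of 50%. The NeuN+ table has no peak nearest Vmn1r2, and the Olig2+ table has 1, at chr4:3082878-3083529. It overlaps the microglia peaks at chr4:3082722-3082975 and chr4:3083169-3083386 without meeting that rule. This Olig2+ peak had 19.2 and 11.8 tags in WT and 10.5 and 9.97 in SgshKO (change -0.52, adjusted p = 0.229).

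**Figure D3:**
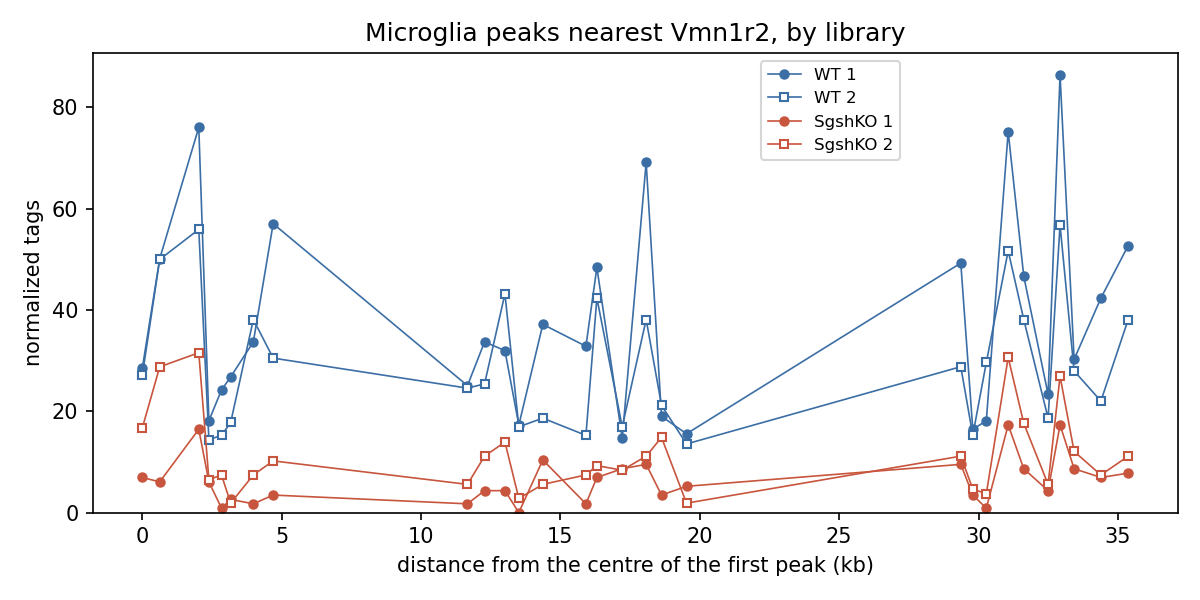
Normalized tags (vertical axis, from 0) of the 29 microglia peaks nearest Vmn1r2 in each library, by distance from the centre of the first peak in kb (horizontal axis); blue lines are WT and red lines SgshKO, with open symbols for replicate 2. At every peak both SgshKO libraries lie below both WT libraries.

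The block lies in the first mapped bases of its chromosome, and the called ones among other microglia peaks in such places also fell. On the placed chromosomes, 59 microglia peaks end before position 3100000, and 29 of them are the Vmn1r2 peaks. Of the other 30, which are no members, 8 fell and 0 rose by limma, where 2.33% of all microglia peaks fell. The changes of these 30 ran from -2.84 to 1.24 (median -1.25). A window to 3100000 was chosen after the block was seen. The 8 microglia peaks nearest Olfr161 lie beyond this window and are the first of the table on chromosome 16 (3232467 to 3241697). They summed to 195 and 171 tags in the WT libraries and to 58.0 and 107 in the SgshKO ones. At each of these 8 the groups were separated, and 2 were called, both lower. The largest of those changes was at chr16:3241462-3241697, in a LINE repeat, with 14.7 and 15.3 tags in WT and 5.19 and 0.93 in SgshKO. It changed by -2.21 ± 0.56 (adjusted p = 0.0103), a call lost without either WT library. How reads that map to several places were treated is not given in the sources used here, and its part in these values was not tested.

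The remaining microglia members that passed were scattered. A peak 7601 bp downstream of the start of Olfr324 (chr11:58604828-58605064) had 27.7 and 33.9 tags in WT and 153 and 117 in SgshKO. It rose by 2.09 ± 0.33 (adjusted p = 6.26e-05) and was the only named microglia call kept without each library in turn. The nearest gene of another kind, 2210407C18Rik, lies 3140 bp away. A peak in an LTR repeat between Olfr1423 and Osbp, the gene for oxysterol-binding protein (chr19:12025473-12025682), had 4.32 and 2.54 tags in WT and 21.6 and 12.1 in SgshKO. It rose by 1.99 ± 0.52 (adjusted p = 0.0142). The groups did not overlap at either peak. Near Olfr155 (chr4:43860697-43860915) WT had 60.5 and 51.7 tags and SgshKO 21.6 and 19.5, a change of -1.40 ± 0.38 (adjusted p = 0.018). Near Olfr111 (chr17:37546271-37546624, in an LTR repeat) they were 54.5 and 61.0 against 19.9 and 23.2, a change of -1.38 ± 0.38 (adjusted p = 0.0186). These 2 members also separated the genotypes. The calls at Olfr1423, Olfr155 and Olfr111 were lost without either WT library, with an adjusted p of up to 0.587, 0.478 and 0.612.

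The strongest microglia members did not pass. The peak near Olfr521 (chr7:99781462-99781703, in a LINE repeat) had 234 and 197 tags in WT and 219.9 and 209 in SgshKO, a change of 0.00 on the log2 scale ± 0.27 (adjusted p = 0.999). Near Olfr156 a peak at chr4:43819001-43819208 had 137 and 157 against 94.4 and 88.2 (change -0.68 ± 0.30, adjusted p = 0.163), and one at chr4:43820258-43820494 had 135 and 118 against 151 and 67.8 (change -0.31, adjusted p = 0.617). The genotypes overlapped at Olfr521 and at the second Olfr156 peak, and not at the first. A peak at chr19:12013277-12013506, between Olfr1423 and Osbp, had 138 and 107 against 113 and 105 (change -0.16, adjusted p = 0.807). The peak near Vmn2r29 at the end of a transcript (chr7:7281384-7281586) lies at -3196 bp from the start site of Vmn2r29. It is 723 bp from Clcn4, a gene of another kind. It had 139 and 64.4 against 94.4 and 86.3 (change -0.07, adjusted p = 0.931). Among members within 1000 bp of a start site, Olfr110 had 73.5 and 56.8 against 53.7 and 61.3, Olfr658 had 46.7 and 28.8 against 22.5 and 19.5, and Olfr433 had 38.9 and 16.9 against 33.8 and 28.8. These 3 did not pass, with adjusted p of 0.821, 0.26 and 0.764. The 3 Taar peaks were not called either. They had 26.8 and 16.9 against 12.1 and 12.1 tags at Taar6, 28.5 and 22 against 50.2 and 26.9 at Taar7f, and 11.2 and 12.7 against 8.66 and 12.1 at Taar8b.

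In NeuN+ nuclei the called members went both ways. Of 147 members 49 were called, against 29.8% of all NeuN+ peaks; 30 rose where 10.2% of all peaks rose, and 19 fell where 19.6% fell. The median change was 0.06 over the members and -0.23 over all peaks, and the genotypes were separated at 106 of 147 members, against 68.5%. Of the 112 intergenic members 28 rose and 13 fell, with a median change of 0.10. Over all 29501 intergenic NeuN+ peaks 5475 rose and 3019 fell, with a median of 0.07. Intergenic peaks as a whole thus differed from the table in the same direction as the members. The split depends on the scaling: of the called members 61.2% were higher in the table as deposited, 92.9% (52 of 56) after scaling to the tags in peaks, 87.0% with median-of-ratios scaling or edgeR, 82.8% after quantile normalization and 10 of 10 with DESeq2. Scaling to the tags in peaks moved the median of all NeuN+ peaks to 0.05 and that of the members to 0.34, and that of all microglia peaks to -0.28. Without WT replicate 1 or WT replicate 2, fewer members and fewer of all peaks were called. The median change was then 0.12 and 0.02 over the members and -0.22 and -0.24 over all peaks. Without SgshKO replicate 1 or SgshKO replicate 2, limma called 0 peaks in the whole table, with 43 and 55 members at an unadjusted p under 0.05, and edgeR called 29 and 40 members. So none of the 13 NeuN+ calls named here was kept by limma in every such fit.

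The largest increase was near Olfr344 (chr2:36565216-36565539), at -3223 bp from its start site in a large array of odorant receptor genes. The peak had 1.70 and 2.26 tags in WT and 30.7 and 38.1 in SgshKO. It rose by 3.57 ± 0.31 (adjusted p = 9e-07), and the groups were far apart. Near Olfr345, next to it in the array (chr2:36646803-36647006, in an LTR repeat), WT had 0.57 and 0 tags and SgshKO 6.98 and 7.62. That peak rose by 2.73 ± 0.45 (adjusted p = 0.000305). Near Vmn1r224 (chr17:20439356-20439579, in an LTR repeat) they were 0 and 1.69 against 9.77 and 9.52, a rise of 2.70 ± 0.47 (adjusted p = 0.000465). Both stand on few reads in WT. The peak nearest Olfr290 (chr7:84938104-84938304) lies 22423 bp from the start site whose promoter is printed above. It had 0.57 and 0 against 6.28 and 5.08 tags, a rise of 2.41 ± 0.47 (adjusted p = 0.00112). Near Olfr398 (chr11:73986768-73987022) the values were 0.57 and 3.95 against 12.6 and 11.4, a rise of 2.22 ± 0.46 (adjusted p = 0.00173). At all 5 peaks the groups did not overlap. Of the 30 members that rose, 16 had at most 10 reads in both WT libraries, 28 genes were nearest to them, 12 lay in annotated repeats and 1 had a partner in another sort.

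The direction of the calls differed with repeats and with sharing between sorts, among the members and over the whole table. The 35 NeuN+ members in annotated repeats had a median change of 0.79, with 12 higher and 2 lower among 14 called, and the 112 members outside repeats had a median of -0.09, with 18 higher and 17 lower. Over all NeuN+ peaks the medians were 0.08 in repeats (1796 higher and 912 lower of 10384) and -0.26 outside them (9212 higher and 20185 lower of 97243). The 107 members without a partner in another sort had a median of 0.31 (29 higher, 7 lower), and the 40 with a partner one of -0.56 (1 higher, 12 lower). Over all NeuN+ peaks the medians were -0.04 without a partner (10293 higher and 7573 lower of 70487) and -0.47 with one (715 higher and 13524 lower of 37140), so the whole table differs in the same direction. Of the 10 members near Vmn1r genes 6 were called higher and 0 lower, where 10.2% and 19.6% of all NeuN+ peaks were. The median change of these 10 was 0.85. They are weak peaks, with a median of 9.92 tags, and too few to describe the family.

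The largest decreases in NeuN+ nuclei were at peaks inside or near genes of other kinds. The peak labelled Olfr70 (chr4:43690712-43690955) lies in the 3' UTR of Tmem8b and had 7.93 and 13 tags in WT and 2.79 and 3.81 in SgshKO. It fell by 1.39 on the log2 scale ± 0.37 (adjusted p = 0.00976). At chr19:12010415-12010711, between Olfr1423 and Osbp, the values were 25.5 and 24.9 against 11.9 and 7.62, a change of -1.31 ± 0.27 (adjusted p = 0.00185). The peak at chr14:51064832-51065087, 6483 bp from the start of Olfr750 and 7590 bp from Rnase12, a ribonuclease A family gene, had 46.5 and 40.7 against 19.5 and 17.8. It changed by -1.18 ± 0.21 (adjusted p = 0.000463). The groups did not overlap at these 3 peaks. The peak labelled Olfr412 (chr11:74410013-74410224) lies in an intron of Rap1gap2, which encodes a GTPase-activating protein for Rap1, and had 10.8 and 10.7 against 3.49 and 5.08 (change -1.17 ± 0.34, adjusted p = 0.0168). The peak labelled Olfr1394 (chr11:49169390-49169601) lies in an exon of Btnl9, a butyrophilin-like gene, and had 19.8 and 13 against 4.19 and 10.2 (change -1.17 ± 0.36, adjusted p = 0.0211). After scaling to the tags in peaks the calls at Olfr412 and Olfr1394 were lost.

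Of the strongest NeuN+ members 1 more passed. The peak near Olfr459 (chr6:41775790-41776044), at -3620 bp from its start site, had 23.2 and 19.8 tags in WT and 38.4 and 41.9 in SgshKO and rose by 0.87 ± 0.20 (adjusted p = 0.00422). Its groups did not overlap. Not called were the peaks near Olfr311 (64.6 and 81.3 against 84.5 and 81.9), Olfr987 (41.9 and 27.7 against 35.6 and 34.9) and Olfr16 (31.7 and 27.7 against 41.9 and 31.1). At start sites, the exon peak of Vmn1r233 (chr17:20993760-20994106) had 12.5 and 10.7 against 25.1 and 19.7 and rose by 0.89 ± 0.26 (adjusted p = 0.0165). Those of Olfr1414 (26.1 and 27.7 against 39.1 and 27.9) and Vmn2r29 (11.9 and 22.6 against 14 and 16.5) were not called. Of the Taar peaks, Taar3, in its own exon, had 6.23 and 14.7 against 6.98 and 8.89 and was not called, and Taar6 is described with the shared loci.

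In Olig2+ nuclei most called members fell. Of 58 members 15 were called, against 19.8% of all Olig2+ peaks; 2 rose where 8.17% of all peaks rose, and 13 fell where 11.7% fell. The median change was -0.51 over the members and -0.07 over all peaks, and the genotypes were separated at 44 of 58 members, against 61.2%. Leaving out WT replicate 1 or WT replicate 2 gave fewer calls among the members and over all peaks. The median change was then -0.48 and -0.47 over the members and -0.08 and -0.08 over all peaks. DESeq2 called 1 member higher and 1 lower, and 4.35% of all Olig2+ peaks.

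The largest decrease was near Olfr502 (chr7:108521047-108521248), 2801 bp after the start site whose promoter is printed above. It had 33.7 and 32.7 tags in WT and 7.38 and 5.32 in SgshKO. The peak fell by 2.23 on the log2 scale ± 0.28 (adjusted p = 9.87e-07), with groups far apart. The largest peak that rose was near Olfr1331 (chr4:118862723-118862928), with 91.8 and 94.6 in WT and 172 and 190.1 in SgshKO. It rose by 0.95 ± 0.11 (adjusted p = 3.88e-07) and is also the strongest Olig2+ member. The calls at Olfr502 and Olfr1331 were kept without each library in turn, with adjusted p of at most 0.000477 and 0.000121; the other 9 of the 11 named Olig2+ calls were each lost without at least 1 library. The other increase was near Olfr1338 (chr4:118756269-118756508), with 3.63 and 6.65 against 13.5 and 9.97 (change 1.08 ± 0.36, adjusted p = 0.0304).

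At the Vmn2r29 promoter printed above, the stronger of 2 Olig2+ peaks, chr7:7278301-7278513, had 64.8 and 56.3 tags in WT and 34.4 and 39.2 in SgshKO. It fell by 0.70 on the log2 scale ± 0.17 (adjusted p = 0.00519), with no overlap between genotypes; leaving out WT replicate 1 ended the call (adjusted p = 0.121). The weaker Olig2+ peak, chr7:7277980-7278255, overlaps the last 16 bases of the promoter window and had 10.9 and 10.2 against 13.5 and 14.6, a change of 0.38 ± 0.29 (adjusted p = 0.372). A NeuN+ peak over the bases of the stronger one was not called (change -0.11 ± 0.29). The tables give this start site to a non-coding transcript record, and the nearest gene of another kind is Clcn4, of the chloride channel family, 3796 bp away. Near Vmn1r21 (chr6:57859791-57860000) the values were 11.4 and 8.69 against 2.46 and 2.66, a change of -1.62 ± 0.38 (adjusted p = 0.003). Near Olfr270, in a SINE repeat (chr4:52958716-52958944), they were 18.7 and 11.3 against 5.53 and 4.65, a change of -1.35 ± 0.34 (adjusted p = 0.00547). Groups did not overlap at either, and both calls were lost without WT replicate 1, that at Vmn1r21 also without WT replicate 2. Near Olfr1368 (chr13:21161255-21161456) the values were 11.4 and 10.2 against 2.46 and 5.98, a change of -1.26 ± 0.38 (adjusted p = 0.0177). At chr19:12005882-12006120, between Olfr1423 and Osbp, they were 14 and 10.2 against 4.92 and 3.99, a change of -1.26 ± 0.35 (adjusted p = 0.0114). The start-site peak of Olfr324 (chr11:58596312-58596513) had 16.1 and 21.5 against 7.38 and 10.6 and changed by -0.99 ± 0.30 (adjusted p = 0.0189), and that of Olfr15 (10.9 and 22 against 8.61 and 11.3) was not called.

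Members were shared between sorts about as often as intergenic peaks are, and more often in Olig2+ nuclei. At a reciprocal overlap of 50%, 31 of 145 microglia members (21.4%), 40 of 147 NeuN+ members (27.2%) and 30 of 58 Olig2+ members (51.7%) had a partner in another sort. The shares over all peaks were 33.4%, 34.5% and 42.2%. Among intergenic peaks only they were 23.1% of members against 23.5% of peaks in microglia, 30.4% against 25.2% in NeuN+ and 53.1% against 34.2% in Olig2+ nuclei. No test of these differences was made.

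At 19 loci a member had a partner in all 3 sorts, one to one. These loci had a median change of -0.62 in microglia, -0.76 in NeuN+ and -0.48 in Olig2+ nuclei, and 12 of the 19 were below 0 in all 3. Over all peaks with a partner in another sort the medians were -0.04, -0.47 and -0.07. How many of all shared loci were below 0 in all 3 sorts was not counted. The strongest, near Olfr311 at chr11:58847019-58847250 inside the gene Gm12258, had 76.1 and 79.6 tags in WT and 95.2 and 57.6 in SgshKO microglia. Its NeuN+ values are given above, and its Olig2+ values were 82.5 and 99.2 against 73.8 and 104. It was called in no sort and its level differed little between them. Near Taar6 (chr10:23979456-23979674 in the microglia table), 6081 bp after the start site of this trace amine-associated receptor gene, the NeuN+ values were 32.3 and 36.1 against 22.3 and 15.2, and the Olig2+ values 33.2 and 26.1 against 18.5 and 9.97. The changes were -0.77 (adjusted p = 0.331) in microglia, -0.85 ± 0.23 (adjusted p = 0.0105) in NeuN+ and -1.06 ± 0.27 (adjusted p = 0.00592) in Olig2+ nuclei. Genotypes did not overlap in any sort at Taar6. The NeuN+ call was lost without each library in turn, and the Olig2+ call without WT replicate 1 and without SgshKO replicate 2. The strongest locus near Olfr750 had 37.2 and 33.9 against 16.5 and 23.2 in microglia and 75.7 and 70.1 against 48.0 and 56.5 in Olig2+ nuclei, beside the NeuN+ values above. In Olig2+ nuclei it changed by -0.48 ± 0.16 (adjusted p = 0.0304), and the groups were separated in each sort. Among 3 loci between Olfr1423 and Osbp, that at chr19:12005405-12005668 had 38.9 and 33.0 against 29.4 and 48.3 in microglia and 18.2 and 13.8 against 9.22 and 9.31 in Olig2+ nuclei. In NeuN+ nuclei it had 33.4 and 28.2 against 20.9 and 19.1, so the genotypes overlapped in microglia alone. That at chr19:12012333-12012606 had 57.0 and 28 against 25.1 and 24.1 in microglia, 28.3 and 20.9 against 9.77 and 17.1 in NeuN+ and 22.8 and 25.1 against 16.6 and 16.6 in Olig2+ nuclei, with separated genotypes in each.

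Whether the genotype change differed between sorts was tested in a limma fit over the 16761 loci shared by all 3 tables. The fit shares 1 estimate of the spread over the 12 libraries, although the microglia pairs spread more than the others, as given above. At the Olfr94 locus below, the standard error was 0.51 for the microglia change alone and 0.50 for its difference from NeuN+ nuclei. The p-values against microglia can therefore be too small. Of the 19 member loci 1 was called for NeuN+ against microglia, 2 for Olig2+ against microglia and 2 for Olig2+ against NeuN+ nuclei, where 42.5%, 21.6% and 31.7% of the shared loci were called. In any pair 3 of 19 were called, against 52.5% of the shared loci. Near Olfr545 (chr7:102513120-102513411) the values were 116 and 82.2 against 56.3 and 45.5 in microglia, 30.0 and 32.2 against 15.4 and 15.9 in NeuN+, and 66.4 and 62.9 against 86.7 and 81.8 in Olig2+ nuclei. The changes of -0.93, -0.95 and 0.38 differed by 1.31 between Olig2+ nuclei and microglia (adjusted p = 0.00252) and by 1.33 between Olig2+ and NeuN+ nuclei (adjusted p = 0.00216). Both held without each library in turn. Near Olfr94 (chr17:37203653-37203854), at -5787 bp from its start site, the values were 4.32 and 7.62 against 16.5 and 12.1 in microglia, 18.7 and 19.8 against 10.5 and 9.52 in NeuN+, and 19.2 and 13.3 against 9.84 and 9.31 in Olig2+ nuclei. The change was 1.16 in microglia, -0.88 in NeuN+ and -0.68 in Olig2+ nuclei. The difference from microglia was -2.04 for NeuN+ (adjusted p = 0.0018) and -1.84 for Olig2+ nuclei (adjusted p = 0.00952), and the second reached 0.0704 with a library left out. At the locus chr19:12010385-12010618, near Olfr1423, the microglia values were 36.3 and 34.7 against 20.8 and 25.1 and the Olig2+ values 11.4 and 6.65 against 7.38 and 9.31. Olig2+ and NeuN+ nuclei differed there by 1.24 (adjusted p = 0.0442), a call lost with a library left out (adjusted p of up to 0.224).

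**Figure D4:**
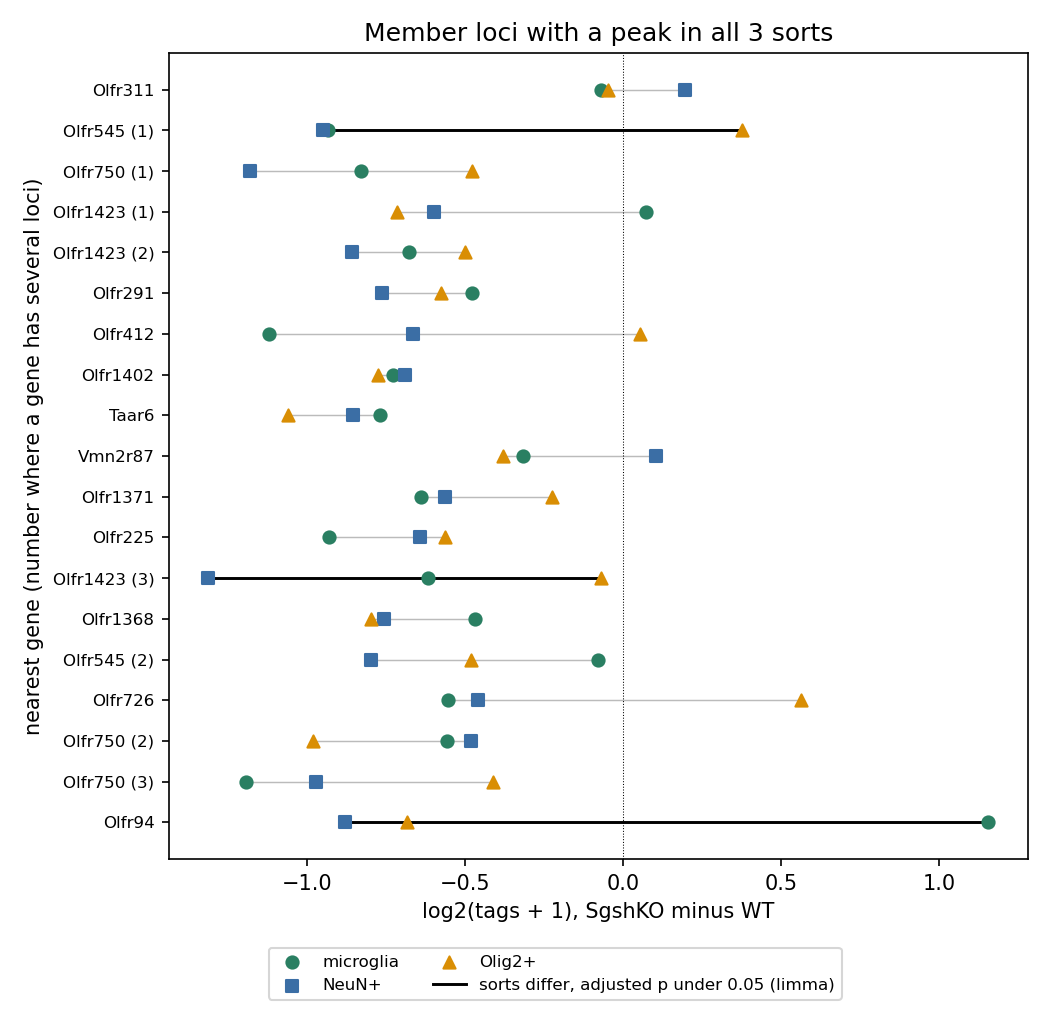
Change on the log2(tags + 1) scale (horizontal axis, SgshKO minus WT) of the 19 member loci with a peak in all 3 sorts (vertical axis, by nearest gene, strongest at the top); circles are microglia, squares NeuN+ and triangles Olig2+ nuclei, and black lines join loci where a difference between sorts passed limma's adjusted p. The triangle of the first Olfr545 locus is at 0.38 with the other symbols at -0.93 and -0.95, and the circle of Olfr94 is at 1.16.

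Added up, the members took a small share of the signal. In microglia they held 0.0970% and 0.0900% of the tags in peaks in WT and 0.0591% and 0.0621% in SgshKO libraries. In NeuN+ nuclei WT libraries held 0.0697% and 0.0695% and SgshKO libraries 0.0943% and 0.0906%, and in Olig2+ nuclei 0.0382% and 0.0376% against 0.0336% and 0.0347%. The genotypes did not overlap in any sort, and the ratios of SgshKO to WT were 0.648, 1.33 and 0.900. The two-sided exact permutation p was 0.333 in each sort, the smallest that 2 libraries against 2 allow. As a share of all tags the ratio was 0.748 in microglia and 1.08 in NeuN+ nuclei, where the SgshKO libraries have fewer tags in peaks. Without the Vmn1r2 peaks the microglia shares of the tags in peaks were 0.0772% and 0.0725% against 0.0564% and 0.0558%. Over all tags the genotypes overlapped once this block was left out. WT libraries then held 0.0431% and 0.0353%, beside 0.0380% and 0.0300% for SgshKO, a ratio of 0.868.

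**Figure D5:**
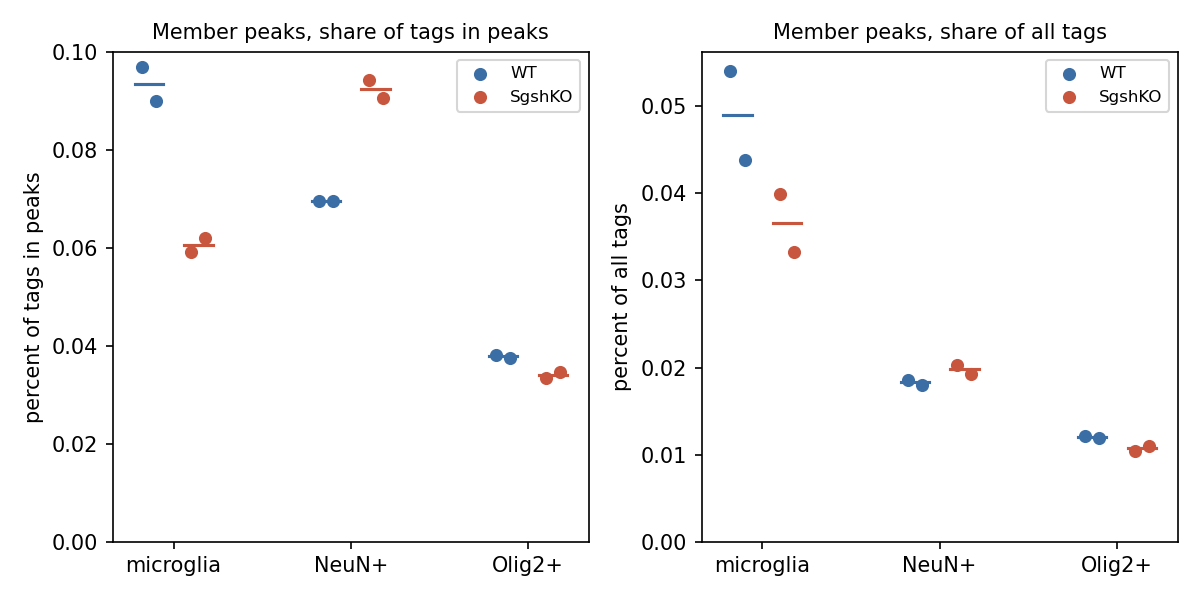
Summed tags of the members in each library (points) and the group mean (lines), as percent of the tags in peaks (left) and of all tags (right), from 0, by sort; blue is WT and red SgshKO. On the left the NeuN+ SgshKO libraries, at 0.0943% and 0.0906%, lie above WT, and the microglia SgshKO libraries, at 0.0591% and 0.0621%, lie below.

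Genes that act with these receptors were counted from fixed lists. Of peaks nearest the olfactory transduction genes (such as Adcy3 and the Cnga channels), 3 of 63 were called in microglia (1 higher, 2 lower), 31 of 98 in NeuN+ (14 higher, 17 lower) and 13 of 58 in Olig2+ nuclei (9 higher, 4 lower), close to the share of all peaks in each table. Of peaks nearest the vomeronasal transduction genes, 5 of 30, 10 of 32 and 12 of 50 were called, with 3, 0 and 10 higher, where 7.37%, 29.8% and 19.8% of all peaks were called and 5.05%, 10.2% and 8.17% were higher. The start-site peak of Gnao1, the G protein subunit used by type 2 vomeronasal receptors and abundant in brain, had 393 and 387 tags in WT and 239 and 248 in SgshKO NeuN+ nuclei, and changed by -0.68 ± 0.07. In Olig2+ nuclei it had 561 and 567 against 704 and 697 and rose by 0.31 ± 0.05, so it moved in opposite directions in these sorts, a difference that was not tested. Of peaks nearest genes of receptor choice and silencing, 5 of 86 (5.81%), 31 of 74 (41.9%) and 18 of 65 (27.7%) were called, with 3, 7 and 5 higher, against the same shares of all peaks. Ldb1, the cofactor named above, had 2 named start-site peaks in NeuN+ nuclei. One fell from 152 and 136 to 53.1 and 55.2, a change of -1.39 ± 0.13, and the other from 119.5 and 126.5 to 64.2 and 66.0, a change of -0.91 ± 0.13. Peaks near other tandem families (taste receptors, defensins, keratin-associated proteins and the like) were called at 2 of 22 (9.09%), 18 of 58 (31.0%) and 4 of 25 (16%), close to the shares of all peaks, with 1, 15 and 1 higher. In NeuN+ nuclei their median change was 0.28, beside 0.06 for the chemoreceptor members.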

How the data were processed

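ATAC-seq was measured in 12 libraries, 2 WT and 2 SgshKO for each of 3 sorts. The submitters' processing notes list Bowtie2, HOMER and build mm10; the sources used here do not give versions, peak calling or duplicate handling. Each deposited table holds peaks, nearest gene and the authors' signal, tags per peak scaled to 10000000 per library, per the file headers; Peak Score is the authors' score and served only as a filter. Whole reads were recovered for 100% of values (within 0.01). All tag columns matched a sample.

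Members were found by gene name, and all matched RefSeq symbols by Entrez number. The members and lists were chosen with earlier results of these data known. log2(tags + 1) was compared with limma 3.58.1 (trend, two-sided, no covariate) in R 4.3.3 over each whole table, with Benjamini-Hochberg adjusted p under 0.05; ± after a change is the standard error. The fit was tested on simulated data. Alternatives were other pseudocounts, filters and scalings, edgeR 4.0.16 and DESeq2 1.42.0 on whole reads, a replicate block and each library left out. Overlaps used bedtools 2.31.1. Named peaks are, per table, the 5 largest called increases and decreases (1 per gene), the 5 strongest, the 3 strongest within 1000 bp of a start site, all Taar peaks, the 5 strongest shared loci and the 3 of lowest interaction p, with at most 3 per gene list. Other tandem families needed a digit after the prefix, which keeps out Espn and Espl1. The cell type markers were counted by their start-site peaks.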

Additional observations from a re-analysis of the deposited data

Results flagged for a closer look

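Differences of the genotype change between sorts passed the test at 3 of the 19 shared member loci. At Olfr545 the change in Olig2+ nuclei was higher than in microglia by 1.31 and higher than in NeuN+ nuclei by 1.33 on the log2 scale. At Olfr94 the change was lower than in microglia by -2.04 in NeuN+ and by -1.84 in Olig2+ nuclei. At the Olfr1423 locus Olig2+ exceeded NeuN+ nuclei by 1.24. Microglia were sorted as unfixed cells and the nuclei after fixation, and the part of this in the differences from microglia was not tested. The fit shares 1 estimate of the spread over the sorts, so its p-values against microglia can be too small. Groups of 2 libraries are too small to look for a library far from the others.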

How the results depend on the processing

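The count of called microglia members (31) was 19 without the 25% of peaks with the lowest mean, 52 after scaling to the tags in peaks, 15 with DESeq2, 4 among members within 50000 bp of a start site and, chosen after seeing the data, 6 without Vmn1r2; with a library left out it ran from 3 to 56 with limma and from 21 to 60 with edgeR. The NeuN+ count (49) was 29 after quantile normalization, 10 with DESeq2, 32 among peaks at the highest Peak Score, and with a library left out 0 to 20 with limma and 29 to 40 with edgeR. The Olig2+ count (15) was 2 with DESeq2 and, with a library left out, 3 to 15 with limma and 7, 10, 6 and 8 with edgeR. The interaction count (3) ran from 2 to 5 with a library left out. The ratio of summed shares was 0.748 in microglia and 1.08 in NeuN+ nuclei over all tags, and 0.952 in Olig2+ nuclei among members at the highest Peak Score. With the replicate block, 44, 56 and 16 members and 3 shared loci were called, and 15.8%, 33.2% and 21.4% of all peaks. The labels do not say whether replicate numbers pair the libraries. Differences of replicate 1 minus replicate 2 correlated between genotypes at 0.042, 0.0036 and 0.00069 over all peaks in microglia, NeuN+ and Olig2+. Over the members the correlations were -0.015, 0.072 and 0.183. Such a correlation cannot see an offset common to all peaks of a library, so pairing stays undecided. The edgeR fits without a library, and the shares without a library, were added after seeing the data. No value of a named peak changed direction past the threshold under any alternative; of their values 15, 65 and 42 lost the call and 7, 9 and 7 gained it in microglia, NeuN+ and Olig2+ tables. Other counts stayed within 1.5 times. The share called over all peaks also moved with a library left out and with DESeq2. In the DESeq2 fits it was 5.28% in microglia, 4.55% in NeuN+ and 4.35% in Olig2+ nuclei. Depth limits weak members: their median was 14 to 33 reads a library.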

Other observations

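Outside the chemoreceptor members, microglia peaks on unplaced or unlocalized scaffolds were also lower in SgshKO: of 75 such peaks 20 fell and 0 rose by limma, with a median change of -1.05, against 7.37% called in either direction over the table. Summed, WT libraries held 3911 and 2953 tags and SgshKO libraries 1890 and 2840, so SgshKO replicate 2 came close to WT replicate 2 and the groups differ mainly through SgshKO replicate 1. Of the NeuN+ peaks 44 lie on such scaffolds, 8 higher and 10 lower, with a median change of 0.03, and of the Olig2+ peaks 75, 11 higher and 4 lower, with a median of 0.05. Near the first mapped bases of the placed chromosomes, before position 3100000, there are 6 NeuN+ and 7 Olig2+ peaks, against 59 in microglia. Peak sets and levels there are values of these tables and were not tested against a cause.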
